A study of Homo sapiens with 2 samples.

Results

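Small nucleolar RNAs (snoRNAs) and small Cajal body RNAs (scaRNAs) were examined in CLIP-seq libraries of hTrmt13, an enzyme that methylates the ribose of tRNA. CLIP-seq recovers RNA crosslinked to a protein and sequences it. A feature was taken where the deposited tables gave it the biotype snoRNA or a name starting with SNORD, SNORA or SCARNA. This gave 1463 of 741078 listed features, in 4 classes: 389 named SNORD (box C/D), 399 named SNORA (box H/ACA), 53 named SCARNA and 622 others. The others were mostly predicted copies, among them 464 snoU13 rows, 82 U3 rows and 26 U8 rows. There was 1 group of 2 replicates and no control library was analysed here, so no condition could be compared. Both libraries came from MDA-MB-231, a line derived from a triple-negative breast cancer. In both, complexes were captured with an antibody to hTrmt13, AlkB-type enzymes took modifications off the dephosphorylated RNA, and membrane-purified material was made into circularised, relinearised and PCR-amplified cDNA. Whether these replicates were separate cultures is not in the labels, so differences between them may be technical.

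Box C/D RNAs pair with a target RNA and place a ribose methylation through the methyltransferase fibrillarin (FBL). Box H/ACA RNAs place pseudouridines through the synthase dyskerin (DKC1). A few members, such as U3, U8, U13, U14 and U17, act in cutting and folding the ribosomal RNA precursor. The scaRNAs use the same boxes and proteins but sit in Cajal bodies and guide changes in spliceosomal RNAs. In human cells most of these RNAs are cut from introns of host genes, many of which code for ribosomal proteins, while U3, U8 and U13 have promoters of their own.

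The sequences below are examples of well-counted SNORD, SNORA and SCARNA members, together with SNORD97, whose known target is a tRNA. They are not the highest throughout: SNORD3B-1, SNORD118, SNORD13, SCARNA2 and the U8 row described later are not shown. They are GENCODE release 29 transcripts matched by gene identifier, with T for U. Capitals mark TGATGA (box C) and CTGA (box D), or an ACA placed 3 bases from the 3′ end (box ACA). SNORD3A (chr17:19091329-19092027, plus strand) is one U3 gene; the tables list it at 699 bases and its transcript has 217. SNORD83A (chr22:39711218-39711312, minus strand) and SNORD83B (chr22:39709824-39709916, minus strand) lie in RPL3. SNORD33 (chr19:49993872-49993956, plus strand) lies in RPL13A, SNORD96A (chr5:180668814-180668892, minus strand) in RACK1, SNORD97 (chr11:10823014-10823155, minus strand) in EIF4G2 and SNORD14E (chr11:122928785-122928869, minus strand) in HSPA8. SNORA73B (chr1:28835071-28835274, plus strand) lies in SNHG3, SNORA84 (chr9:95054743-95054875, minus strand) in IARS, SNORA64 (chr16:2012974-2013107, minus strand) in RPS2 and SCARNA12 (chr12:7076500-7076769, minus strand) in PHB2. All coordinates are hg19 as the tables give them.
SNORD3A: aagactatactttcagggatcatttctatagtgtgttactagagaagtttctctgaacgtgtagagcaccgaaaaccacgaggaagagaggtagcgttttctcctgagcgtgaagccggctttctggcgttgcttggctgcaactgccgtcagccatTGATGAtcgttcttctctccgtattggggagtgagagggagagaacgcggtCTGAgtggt
SNORD83A: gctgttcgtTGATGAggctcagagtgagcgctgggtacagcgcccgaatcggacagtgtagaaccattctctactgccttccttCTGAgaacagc
SNORD83B: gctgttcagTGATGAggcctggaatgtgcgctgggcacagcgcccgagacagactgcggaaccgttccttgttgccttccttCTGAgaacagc
SNORD33: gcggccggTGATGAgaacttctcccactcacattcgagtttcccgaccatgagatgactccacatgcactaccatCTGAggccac
SNORD96A: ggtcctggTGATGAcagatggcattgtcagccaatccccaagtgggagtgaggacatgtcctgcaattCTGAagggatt
SNORD97: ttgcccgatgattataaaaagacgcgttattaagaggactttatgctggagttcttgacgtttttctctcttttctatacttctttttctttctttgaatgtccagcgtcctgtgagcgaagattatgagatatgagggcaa
SNORD14E: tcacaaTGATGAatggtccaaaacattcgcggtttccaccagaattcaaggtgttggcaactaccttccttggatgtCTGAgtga
SNORA73B: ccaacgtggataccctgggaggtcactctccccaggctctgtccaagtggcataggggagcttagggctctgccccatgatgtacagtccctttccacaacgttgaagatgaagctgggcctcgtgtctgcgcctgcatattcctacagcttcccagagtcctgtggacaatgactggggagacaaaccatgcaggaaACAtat
SNORA84: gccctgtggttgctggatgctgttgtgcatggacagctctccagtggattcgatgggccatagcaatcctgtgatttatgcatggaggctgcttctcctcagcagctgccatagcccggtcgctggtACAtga
SNORA64: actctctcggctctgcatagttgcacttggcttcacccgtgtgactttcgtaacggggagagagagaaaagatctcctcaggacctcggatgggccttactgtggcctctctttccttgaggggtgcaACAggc
SCARNA12: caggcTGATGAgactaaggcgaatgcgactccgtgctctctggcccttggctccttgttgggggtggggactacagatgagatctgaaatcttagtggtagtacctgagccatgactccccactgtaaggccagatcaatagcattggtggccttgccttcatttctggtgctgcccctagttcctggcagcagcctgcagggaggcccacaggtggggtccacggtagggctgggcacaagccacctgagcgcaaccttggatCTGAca

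Box C and box D frame most of the SNORD sequences shown, with TGATGA a few bases from the 5′ end and CTGA a few bases from the 3′ end. SNORD3A differs: its TGATGA lies deep inside the RNA. SNORD97 had no TGATGA in its first 30 bases and no CTGA in its last 15. SCARNA12 carried both C/D boxes at its ends. Searched on the given strand only, TGATGA in the first 30 bases together with CTGA in the last 15 was found in 184 of 326 SNORD sequences (56.4%), 0 of 382 SNORA sequences and 6 of 46 SCARNA sequences (13%). ACA at 3 bases from the end was found in 234 of 382 SNORA sequences (61.3%) and 7 of 326 SNORD sequences (2.15%). Among 8271 other transcripts of like length, 0.0242% held both C/D boxes and 1.48% held the terminal ACA. Both C/D boxes were found in 15 of 25 SNORD members averaging 10 or more R1 counts (60.0%) and in 110 of 198 with no count (55.6%). The 25 include the 4 SNORD3 rows, which lowers the first share. The deep TGATGA of SNORD3A is outside the search, and the other SNORD3 rows were searched at listed lengths of 581 to 791 bases.

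The R1 tables, which hold the first mates, summed to 27907799 counts in replicate 1 and 20590398 in replicate 2. At these depths a member with no count could still have a level of up to 0.107 and 0.146 CPM (counts-per-million units), the limit that a count of 0 allows (3 counts). The intervals and limits given here cover counting error only, since PCR reads without molecular identifiers are not independent molecules. VIM, a mesenchymal marker that MDA-MB-231 is known for, stood at 382 and 722 R1 counts. The other marker genes of the line were low (SPARC at 24 and 32, CD44 at 12 and 7). The epithelial genes CDH1, EPCAM, ESR1, KRT8 and KRT18 held between 4 and 51 counts, RBFOX3, a neuronal gene, held 24 and 54, and ALB, a liver gene, held 0. The markers went both ways, with CDH1 (40 and 51) above SPARC and CD44 in both replicates, so they did not check the cell line. A CLIP library is also not a measure of expression.

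Members as a whole took up a very small part of each library. They held 2713 R1 counts in replicate 1 (0.00972% of the total, exact Clopper-Pearson 95% interval 0.00936% to 0.0101%) and 2595 in replicate 2 (0.0126%, interval 0.0121% to 0.0131%). The mean share was 0.0112% ± 0.00204 (SD, n = 2). With tRNA features and features overlapping them left out of the total, the share was 0.0897%. The intervals of the replicates did not overlap, and the share of the total was higher in replicate 2 (log2 ratio to replicate 1 of 0.37). With TMM scaling (edgeR) that ratio was -0.72, so the direction depended on the scaling. The intervals also take reads as independent, which PCR reads are not.

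Box C/D RNAs supplied most of these counts. SNORD rows held 1882 and 1638 R1 counts in replicates 1 and 2, a mean of 66.2% ± 4.42 of the members' counts. SNORA rows held 397 and 420 (15.4% ± 1.10), and SCARNA rows held 255 and 356 (11.6% ± 3.05). The remaining rows held 179 and 181 (6.79% ± 0.267) although they are the largest class by number. In CPM the SCARNA class differed most between replicates, at 9.14 and 17.3, against 67.4 and 79.6 for SNORD, but with TMM scaling (edgeR) it differed least, with a log2 ratio of replicate 2 to replicate 1 of -0.17 against -0.85 for SNORD.

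Most members were not detected. An R1 count was present for 320 members in replicate 1, 345 in replicate 2, 231 in both and 434 in at least one. The other 1029 had none, and 974 of them had none in any table. Detection in at least one replicate was most frequent for SCARNA (27 of 53, 50.9%), followed by SNORA (162 of 399, 40.6%), SNORD (136 of 389, 35.0%) and the others (109 of 622, 17.5%). Only 40 members reached a mean R1 count of 10: 25 SNORD, 6 SNORA, 7 SCARNA and 2 others.

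Detection differed by annotation. Of 716 members inside a same-strand gene, 317 (44.3%) had a count, against 117 of 747 (15.7%) outside one. Of 311 members whose name is listed once, 163 (52.4%) had a count, against 271 of 1152 (23.5%) whose name is repeated, as it is for predicted copies. Among SNORA rows the shares were 46 of 56 for single names and 116 of 343 for repeated names. All 13 SCARNA rows with a single name had a count. These are counts of features, with no test, and the treatment of reads that match several copies is not given in the sources used here.

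Counts were concentrated in a few RNAs. The highest member, SNORD3A, held 13.6% ± 0.986 of the members' counts (SD, n = 2), the highest 5 held 37.9% ± 0.353 and the highest 20 held 57.6% ± 1.84.

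**Figure D1:**
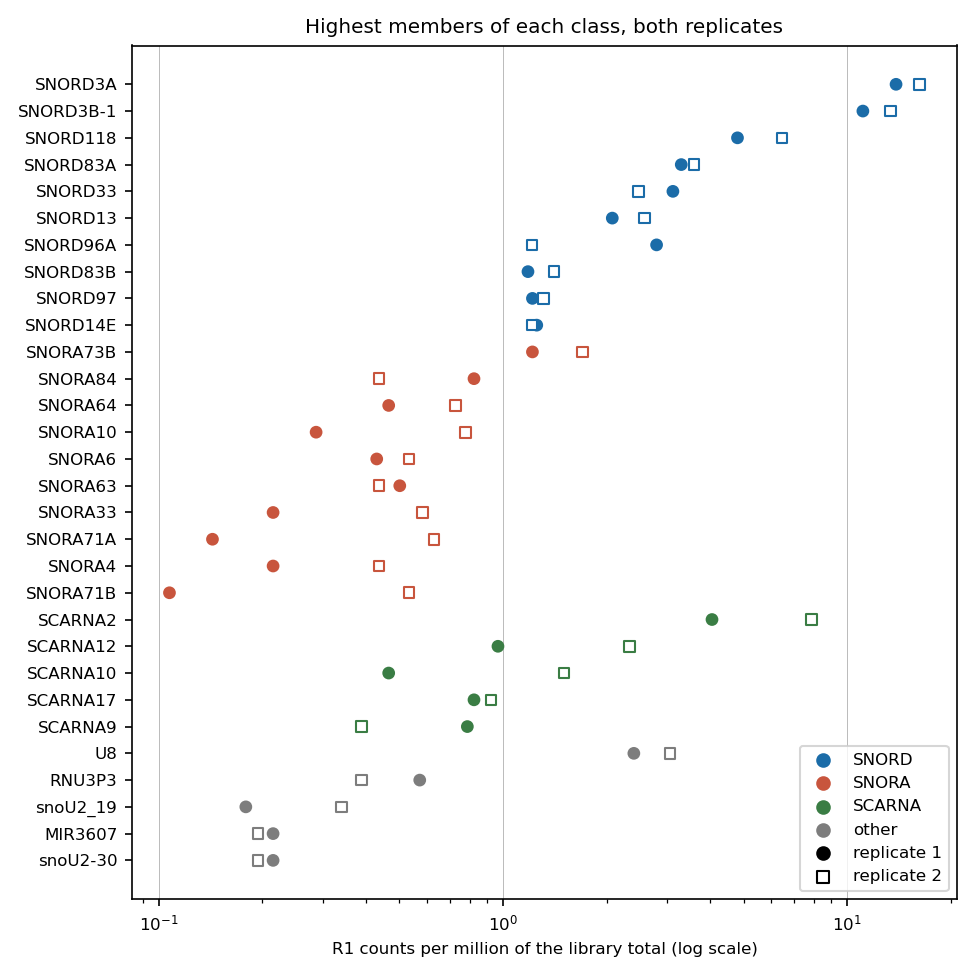
R1 CPM (log axis) for the 10 highest SNORD and SNORA members and the 5 highest SCARNA and other members; filled circles are replicate 1, open squares replicate 2 and colours the class. SNORD3A and SNORD3B-1 lie above all others in both replicates, and SCARNA2 is the highest scaRNA.

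Among the RNAs that act in processing of the ribosomal RNA precursor, U3 came first. SNORD3A held 387 R1 counts in replicate 1 and 334 in replicate 2 (15.04 ± 1.66 CPM, n = 2), and SNORD3B-1 held 310 and 275 (12.2 ± 1.59 CPM). The other listed U3 genes were low in both libraries, with 11 and 27 counts for SNORD3B-2 and 5 and 23 for SNORD3C. Together these 4 rows held 713 and 659 counts, 39.1% ± 1.66 of the SNORD counts. How the counts fall among the 4 rows is uncertain. The 217-base RNAs of SNORD3B-1 and SNORD3B-2 are identical, and that of SNORD3A matches either at 216 of 217 bases. SNORD3B-1 and SNORD3A lie on the plus strand and the other U3 rows on the minus strand. The 82 further U3 rows, predicted copies, held 28 and 23 counts in total over 15 rows, RNU3P3 among them.

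U8, U13, U14 and U17 followed. SNORD118 (U8, needed to process the large subunit rRNAs) held 134 and 133 R1 counts (5.63 ± 1.17 CPM). A separate row named U8 on chromosome 11 (chr11:123172098-123172231, plus strand), 89.6% identical to SNORD118, held 67 and 63. SNORD13 (U13) held 58 and 53 counts (2.33 ± 0.351 CPM), and the 464 snoU13 rows together held 57 and 64. SNORD13 lies opposite C8orf41, a gene with 121 and 143 counts, whose reads cannot be told apart from those of SNORD13 where counting ignores strand. SNORA73B, a U17 RNA of the box H/ACA class that acts in small subunit rRNA processing, held 34 and 35 (1.46 ± 0.340 CPM). U14, which pairs with the small subunit rRNA, has 5 rows, SNORD14A to SNORD14E, all counted, with 72 and 71 counts in sum. SNORD14E had 35 and 25 of them, while SNORD14D had 5 and 4.

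Of the 33 rows matched to the list of rRNA-processing snoRNAs, 18 had an R1 count. SNORA73A and SNORD3D of that list were not matched. Of 13 rows on the list of independently transcribed members, 10 had a count, with 1042 and 1032 counts in sum, most of them from SNORD3A and SNORD3B-1.

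Among SNORD members outside the rRNA-processing group, the 3 highest came from ribosomal and ribosome-associated protein genes. SNORD83A, in RPL3, held 92 and 74 R1 counts (3.45 ± 0.210 CPM). SNORD33, in RPL13A and a guide for small subunit rRNA, held 87 and 51 (2.80 ± 0.453 CPM). SNORD96A, in RACK1, held 78 in replicate 1 and 25 in replicate 2 (2.00 ± 1.12 CPM) and was the least even of the high SNORD members. SNORD83B, whose RNA is 78.9% identical to SNORD83A, held 33 and 29.

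SNORD97 is of interest beside a tRNA methyltransferase because its known target is elongator tRNA-Met, whose anticodon loop it guides for ribose methylation. It held 34 and 27 R1 counts (1.26 ± 0.0658 CPM) and 26 and 18 R2 counts, the second mates. Its CPM ranked 9th of all SNORD members and was 1.22 and 1.31 in the replicates, whereas its log2 ratio of replicate 2 to replicate 1 was -0.98 with TMM scaling (exact binomial test, adjusted p = 0.103). It lies on the strand opposite to CTR9, a gene with 444 and 890 counts. Reads of CTR9 and of SNORD97 cannot be told apart where counting ignores strand, which the sources used here do not settle. In GENCODE release 29 SNORD97 also overlaps an exon of its host EIF4G2, a gene with 693 and 1342 R1 counts. Reads of an EIF4G2 transcript that keeps this exon cannot be told apart from those of SNORD97. Per kilobase, SNORD97 was 4.33-fold above the rest of EIF4G2 in replicate 1 and 1.72-fold in replicate 2. The other known guide of elongator tRNA-Met, SCARNA97, was not matched by name.

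Per kilobase of listed length the order changed, because the U3 rows are several times longer than the U3 RNA. SNORD118 stood highest at 42.0 ± 8.75 CPM per kb (SD, n = 2), then SNORD83A at 36.3 ± 2.21 and SNORD33 at 32.9 ± 5.33. These neighbours did not differ beyond their spread. SNORD96A (25.4 ± 14.1), SNORD13 (22.4 ± 3.37), SNORD3A (21.5 ± 2.38) and the chromosome 11 U8 row (20.4 ± 3.48) followed within about 1 SD of each other. SNORA73B, at 7.15 ± 1.67 CPM per kb, was the highest SNORA member per length, and SCARNA2, at 13.95 ± 6.32, the highest SCARNA member.

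Box H/ACA RNAs were lower and more evenly spread. After SNORA73B, SNORA84 held 23 and 9 R1 counts, SNORA64, a guide for large subunit rRNA, 13 and 15, SNORA10 8 and 16, SNORA6 12 and 11 and SNORA63 14 and 9. The rest of the 10 highest were SNORA33 with 6 and 12 counts, SNORA71A with 4 and 13, SNORA4 with 6 and 9 and SNORA71B with 3 and 11. SNORA73B alone made up only 8.45% ± 0.163 of the SNORA counts, against 44.9% ± 0.843 for SCARNA2 in its class.

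The scaRNAs were led by SCARNA2, a guide for U2 snRNA, with 113 R1 counts in replicate 1 and 162 in replicate 2 (5.96 ± 2.70 CPM). SCARNA12 held 27 and 48 (1.65 ± 0.964 CPM) and SCARNA10 held 13 and 31 (0.986 ± 0.735 CPM); both are known as guides for U5 snRNA. SCARNA9, another U2 guide, went the other way with 22 and 8. SCARNA17 is listed as several rows. The highest, of 37037 bases, held 23 and 19 counts, but a 144-base SCARNA17 row inside it held 1 and 5. Most counts of the long row were thus not counted in that 144-base row. Where in the long row they lay was not determined. SCARNA2, SCARNA9, SCARNA10 and the long SCARNA17 row are listed with a biotype other than snoRNA and entered by name.

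Of the remaining class, the chromosome 11 U8 row held 36.1% ± 1.86 of the counts and the snoU13 rows 33.6% ± 2.49. RNU3P3, a U3 pseudogene, held 16 and 8 R1 counts but no R2 count in either replicate. The snoU2_19 and snoU2-30 rows, both inside EIF1AX, held 5 and 7 and 6 and 4 counts, and MIR3607, inside COX7C, held 6 and 4.

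The repeated box C/D families of the imprinted regions, known mainly from brain, were almost without counts. None of the 72 rows on the 15q11 list, among them the numbered SNORD115 and SNORD116 rows, had an R1 count, and neither did any of 15 SNORD113 rows. Of 30 SNORD114 rows, 1 (SNORD114-24) had a single count in replicate 2. An unnumbered SNORD116 row on chromosome 9, outside that cluster, had a single count in replicate 1. By counting error alone, the limit for each uncounted row was 0.107 CPM in replicate 1 and 0.146 CPM in replicate 2, so low levels were not detectable at this depth. Because these families are repeated and the treatment of reads that match several copies is not given, a count of 0 may not bound the level.

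SnoRNAs from the same host gene differed widely. In RPL13A, SNORD33 held 87 and 51 R1 counts, whereas SNORD32A held 3 and 5, SNORD34 held 8 and 3 and SNORD35A held 12 and 7. In RPL3, SNORD83A held 92 and 74, SNORD83B 33 and 29 and SNORD43 10 and 8. In HSPA8, SNORD14E held 35 and 25, against 10 and 13 for SNORD14C and 5 and 4 for SNORD14D. In each of these 3 genes the highest member was above the others in both replicates. Other hosts were more even. The 3 members in ZFAS1 held between 9 and 22 counts (SNORD12B 22 and 18, SNORD12 13 and 15, SNORD12C 9 and 9), and the 8 members in TAF1D held between 0 and 7. In RPS12 the order was not stable, with SNORD101 at 25 and 13, SNORD100 at 8 and 12 and SNORA33 at 6 and 12.

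**Figure D2:**
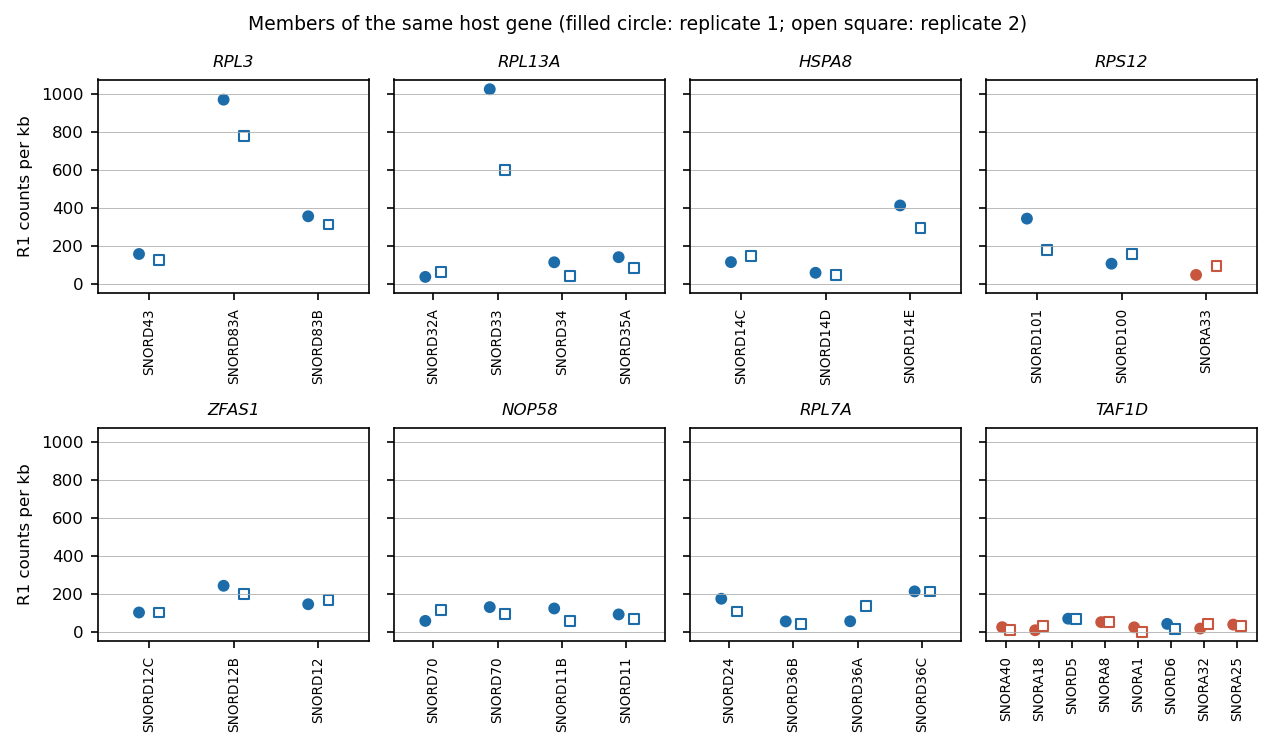
R1 counts per kilobase of listed length for each member of 8 host genes (linear axis shared by all panels); filled circles are replicate 1, open squares replicate 2. SNORD33 in RPL13A and SNORD83A in RPL3 stand above the other members of their hosts in both replicates, while the members of TAF1D are all low.

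Members were then set against the rest of their host gene, as R1 counts per kilobase, where the rest is the gene's span without its members, exons and introns together. Of the 40 members that reached that mean of 10, 31 lie inside a same-strand gene. Their median log2 ratio to the rest of the host was 1.95, or 3.87-fold higher, with medians of 2.55 in replicate 1 and 1.58 in replicate 2. The median was 1.95 for 20 SNORD members, 1.25 for 6 SNORA members and 3.51 for 5 SCARNA members. In 26 of the 31 the member was above its host in both replicates, and in 24 the mean was over 2-fold. No host in this set overlaps a tRNA feature. The members were picked by a minimum count, which favours high ratios, so these values describe these 31 only.

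SNORD118 stood furthest above its host. It lies in TMEM107, a gene with 143 and 151 R1 counts, of which SNORD118 held 134 and 133, so the counts of this gene were nearly all those of the snoRNA. TMEM107 is its host by position only, because U8 has a promoter of its own. Without SNORD118 the median log2 ratio of the remaining 30 members was 1.89. GENCODE release 29 places SNORD118 in an untranslated region of TMEM107. SNORD33 was 18.0-fold above the rest of RPL13A in replicate 1 and 5.99-fold in replicate 2, and SNORD83A was 13.5-fold and 5.43-fold above the rest of RPL3. SNORD96A was 12.8-fold above RACK1 in replicate 1 and 2.09-fold in replicate 2. SCARNA5, in the long gene ATG16L1, was 32.3-fold and 48.1-fold above it with 9 and 17 counts. SNORA64 and SNORA10 lay below their shared host RPS2 in both replicates, at 0.322-fold and 0.213-fold for SNORA64 and 0.199-fold and 0.228-fold for SNORA10. SNORA10 overlaps an untranslated region of RPS2 in that annotation. SCARNA5 and this pair were singled out after their values were seen.

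**Figure D3:**
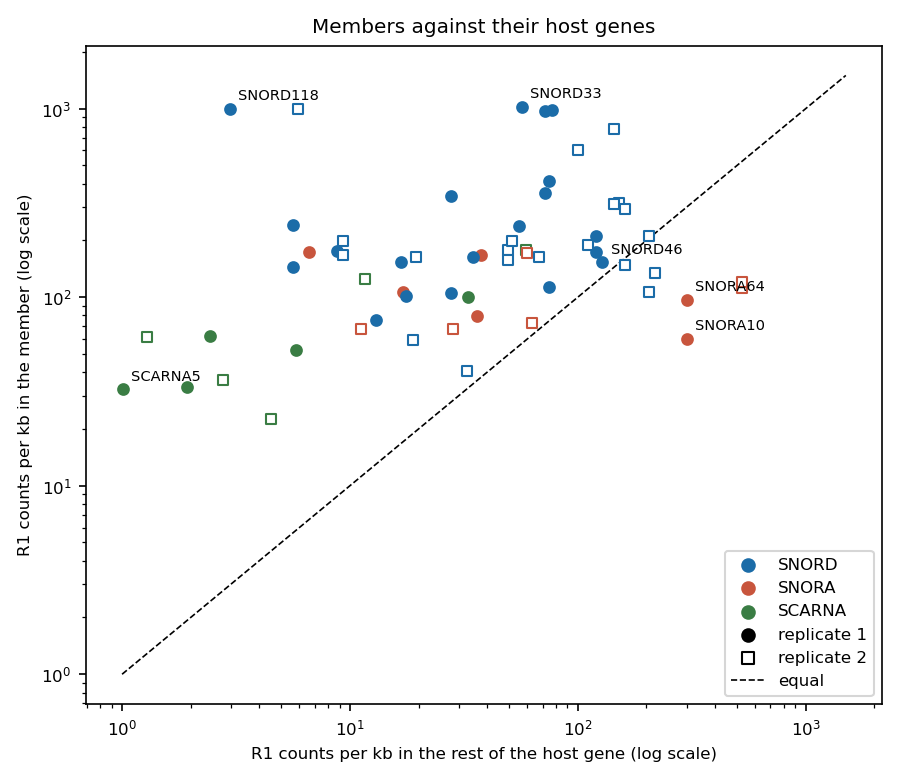
R1 counts per kilobase in a member (vertical, log axis) against the rest of its host gene (horizontal, log axis) for 31 members averaging 10 or more counts; filled circles are replicate 1, open squares replicate 2, and the dashed line marks equal levels. Most points lie above the line, SNORD118 is the furthest above it, and SNORA64 and SNORA10 lie below it.

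In GENCODE release 29, 39 of the 40 members were found. Of these, 12 lay in an intron of every transcript that spans them, 21 overlapped an exon of another same-strand entry, 4 overlapped an untranslated region (SNORD118, SNORD14C, SNORD15A and SNORA10) and 6 lay in no same-strand gene. The exon belonged to the host gene for 16 of the 21, and there reads of a host transcript that keeps the exon cannot be told apart from reads of the snoRNA. For SCARNA2, SCARNA9, SCARNA10, SCARNA17 and SNORA84 it belonged only to another entry of the same RNA or of a small RNA.

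The first and second mates gave different pictures of these classes. Over all features the R2 total was 40.3% of the R1 total in replicate 1 and 42.7% in replicate 2. Summed by class, R2 counts were 39.6% and 49.5% of R1 counts for SNORD, 61.7% and 84.5% for SNORA, 76.9% and 77.8% for SCARNA and 62.0% and 75.1% for the others. SNORD members were thus the class nearest to the library total. Among features that average 10 or more R1 counts, the median was 36.4% and 39.1% for 25 SNORD members, 40.2% and 38.4% for 473 tRNA features, 82.5% and 82.0% for 25 host genes and 87.8% and 84.6% for protein-coding genes. For 6 SNORA members it was 56.1% and 94.3%. Other small RNA features also differed among themselves, at 24.1% and 30% for 90 snRNA, 20.3% and 18.8% for 282 misc_RNA and 58.3% and 79.3% for 27 miRNA features. A low percent was thus not particular to SNORD members and tRNA features. SCARNA members, at 80.5% and 83.9%, lay near the median of these 25 host genes, which are the hosts of all tested members and not of SCARNA members alone.

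Single members spanned the whole range. SNORD72 held 14 and 13 R1 counts but 1 and 3 R2 counts (14.8% over both replicates), SNORD100 had 15%, and RNU3P3 had 0. At the other end SNORA64 had as many R2 as R1 counts, SNORD86 had 92.9% and SNORA73B 91.3%. The U3 rows were low, with 28.7% for SNORD3B-1 and 43.1% for SNORD3A. Length moved with this ratio: 4 of 17 members of up to 110 bases had an R2 count over 50% of R1, against 17 of 23 longer ones. The part of length in the class difference was not tested.

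**Figure D4:**
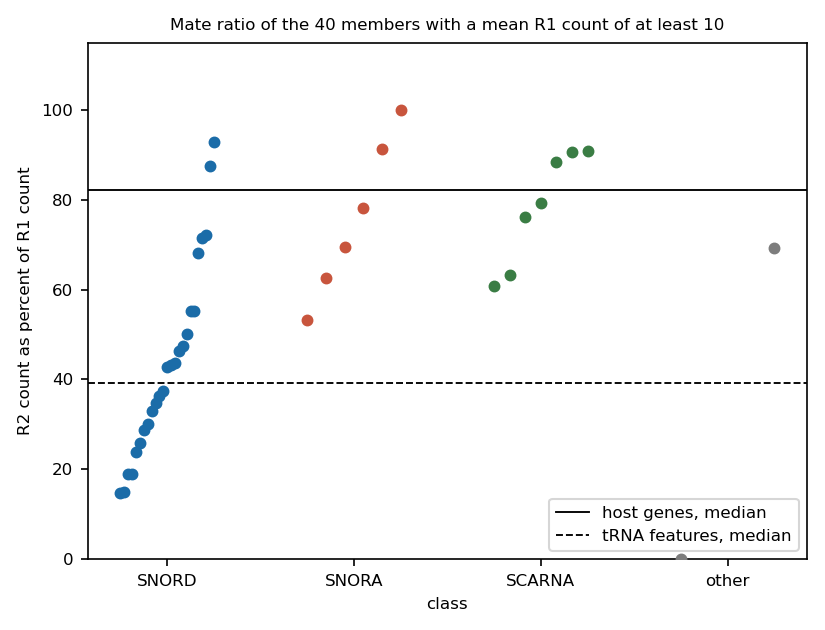
R2 count as a percent of the R1 count, both replicates summed, for each of the 40 members with a mean R1 count of at least 10, by class (each point is 1 member, sorted within its class). The solid and dashed lines are the medians of the host genes and of tRNA features in replicate means; most SNORD points lie low and all SCARNA points lie above 60.

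The replicates were compared with an exact two-sided binomial test of each feature's 2 R1 counts, with Benjamini-Hochberg adjustment over the 18723 features that average 10 or more. This compares 1 library with another, not conditions, and takes no account of variation between samples. With library sizes scaled by TMM (edgeR), 10 of 40 members (25%) passed an adjusted p of 0.05, all lower in replicate 2, and none was higher. Over all features 8.44% passed the same adjusted threshold, 6.30% lower and 2.14% higher. At an unadjusted p of 0.05, 17 members passed, of which 1 was higher. The share of all features at that unadjusted threshold is not given here. The members called after adjustment were SNORD96A, SCARNA9, SNORA84, SNORD101, SNORD33, SNORD14E, SNORD83A, SNORD3A, SNORD3B-1 and SNORD118. The median log2 ratio of replicate 2 to replicate 1 was -0.78 for members, -1.10 for tRNA features, 0.01 for protein-coding genes and 0.09 for the members' host genes.

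The direction of that difference depended on the scaling. With library totals in place of TMM, the median over all features moved from -0.00 to 1.09. Under totals 11 members passed, 10 higher and 1 lower in replicate 2, against 81.6% of all features passing, 80.2% higher and 1.42% lower. The members' median was then 0.31, compared with 1.11 for protein-coding genes, 1.19 for host genes and -0.01 for tRNA features. The scaling shifts every feature alike, so the members' median lay between those of tRNA features and protein-coding genes in both cases. That position was not particular to members. Under totals the medians of misc_RNA (0.07) and miRNA features (0.86) also lay between them, and that of snRNA features (-0.19) lay below. By class the medians under totals were 0.26 for SNORD, 0.40 for SNORA and 0.96 for SCARNA, the last near that of the host genes.

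SNORD96A was the one member called lower in replicate 2 under both scalings, with a log2 ratio of -2.28 (exact binomial test, adjusted p = 2.09e-12) under TMM and -1.18 (adjusted p = 0.000324) under totals. SNORD3A, SNORD3B-1 and SNORD118 passed under both but in opposite directions, SNORD118 at -0.66 under TMM and 0.43 under totals. SNORD3C was highest in replicate 2 at 2.53 under totals (adjusted p = 7.97e-05) and 1.44 under TMM, where it did not pass (adjusted p = 0.199).

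**Figure D5:**
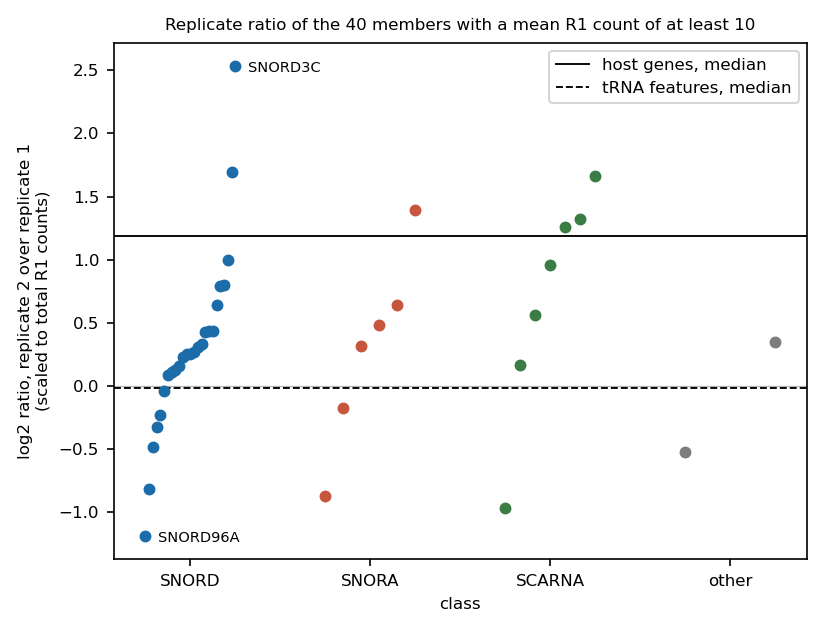
Log2 ratio of replicate 2 to replicate 1, scaled to total R1 counts, for the 40 members with a mean R1 count of at least 10, by class (each point is 1 member, sorted within its class; colours as the class). The solid line is the median of the host genes, at 1.19, and the dashed line that of tRNA features, at -0.01; 24 members lie between them, 6 above and 10 below, with SNORD3C the highest and SNORD96A the lowest.

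The mRNAs of the proteins that form these particles were also counted. Of the box C/D core, FBL held 247 and 484 R1 counts (16.2 ± 10.4 CPM), NOP56 226 and 424, NOP58 249 and 343 and SNU13 84 and 163. Of the box H/ACA core, DKC1 held 87 and 160 counts, NHP2 77 and 151, NOP10 22 and 49 and GAR1 13 and 21. Among 18 genes for assembly and Cajal body proteins, XPO1, an export receptor, was highest with 574 and 922, and COIL, which codes for coilin, held 50 and 93. None of these 26 genes passed the adjusted replicate test under TMM (edgeR), 2 did without adjustment, both higher in replicate 2, and 25 passed as higher in replicate 2 under totals, where most features do. NOP56 and NOP58 are also hosts: SNORD86 in NOP56 held 14 and 14 counts, and the 4 members in NOP58 held between 5 and 11.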

How the data were processed

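RNA was measured by CLIP-seq of hTrmt13 in 2 replicates of MDA-MB-231 cells. The authors deposited 4 tables of whole-number read counts per feature, not normalized, 1 for each mate (R1, R2) of each replicate. The build was hg19 (GRCh37) and the tools bedtools 2.24.0 and Bowtie2 2.3.5.1, per the submitters' processing notes. Their options, the use of strand and the handling of multiply matching reads are not stated in the sources used here. Each table has 741091 lines, of which 13 repeats were dropped. Total R1 counts were 27907799 and 20590398, and 3 counts are 0.107 and 0.146 CPM.

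Shares and CPM were computed from R1 totals with Python 3.11.15, pandas 2.3.3 and scipy 1.17.1. TMM factors came from edgeR 4.0.16 and size factors from DESeq2 1.42.0 (R 4.3.3). Log2 ratios used 0.5 added counts in the replicate test. The test was tested on simulated data: of 200 features of 18723 raised 4-fold, it called 95.5%. The simulated counts were Poisson draws with a known library ratio and no further spread between libraries, so this does not measure false calls in the real libraries. A host is a same-strand gene at least 3 times longer than the member. Of 1463 members, 902 had an identifier in GENCODE release 29 and 841 a transcript sequence, 840 of them at the listed length. Only an hg19 position is given, and no position was converted.

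Members and gene lists were chosen with earlier results of these data known. Members named are the 10 highest SNORD and SNORA and the 5 highest SCARNA and other members by CPM, those called between replicates, the 3 highest and lowest by R2 percent, the highest of each list, and hosts. Others named were chosen after their values were seen. Alternatives were R2 or summed tables, other count minimums, scalings and totals, and leaving out a replicate, the U3 rows, SNORD118 or rows of another biotype.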

Additional observations from a re-analysis of the deposited data

How the results depend on the processing

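Of 56 values of the main results under alternatives, 40 stayed within 1 SD or, for counts of members, within 1.5 times, and 16 moved. Of 150 CPM values of single members, 63 moved, 52 up and 11 down. Part of these tallies was fixed in advance. With n = 2, leaving out a replicate cannot shift a mean by 1 SD, so none of those CPM values moved. Leaving out members that overlap another small RNA class, or hosts that overlap a tRNA feature, removed none. All 30 CPM values with tRNA features out of the total moved up, because a smaller total raises every CPM. The tallies therefore do not measure robustness. The share of all members was 0.0147% from R2, 0.0897% with tRNA features and their overlaps out of the total, and 0.00828% without the 4 SNORD3 rows. The SNORD share was 0.0598% without tRNA features and 0.00447% without SNORD3 rows. From R2 and without tRNA features, respectively, the SNORA share was 0.00311% and 0.0137%, the SCARNA share 0.00245% and 0.0101%, and the share of others 0.00127% and 0.00607%. Without rows of another biotype, SCARNA2 among them, the SCARNA share was 0.000481%. Of 231 members counted in both replicates, 124 had at least 3 counts in both and 30 at least 10. The replicate test called 2 members from R2 and 19 from summed mates, all lower in replicate 2. Over all features it called 1106 of 17753 from R2 and 3589 of 21902 from summed mates. In R1 it called 10 members, where 1580 of 18723 features passed, and 10 with DESeq2 size factors, where 1582 passed. With totals it called 11 members, 10 of them higher in replicate 2, where 15279 of 18723 features passed. The minimum was reached by 24 members in R2 and 73 in summed mates. Leaving out a replicate leaves 1 library's own value, 0.00972% to 0.0126% for all members and 1.58 to 2.55 for the log2 ratio to the host; no test is left. The SNORD3 and biotype alternatives were chosen after seeing the data. No paired analysis was possible because the study has 1 group. Depth limits most members, since 1029 had no R1 count.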

Other observations

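A minority of the members held more second than first mates. Of 489 members with a count in any table, 117 had more R2 than R1 counts over both replicates and 16 had more in each replicate. SNORA71C was one of these, with 4 and 7 R1 counts against 13 and 35 R2 counts in replicates 1 and 2, and SNORD58B was another, with 4 and 3 against 6 and 20. Both were named after their values were seen. Most of the 489 members had few counts, since only 40 averaged 10 or more R1 counts. The share of all features with more R2 than R1 counts is not given here, so 117 has no comparison. The 134-base RNA of SNORA71C is 83.1% identical to that of SNORA71A, which held 4 and 13 R1 counts.

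SNORD78, inside GAS5, held 0 and 4 R1 counts and 1 and 6 R2 counts. Other snoRNAs of this host were not analysed here. Listed piRNA features inside members were too few to place reads along a snoRNA: 10 lay inside 3 members, and 1 of them had an R1 count.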
